A study of Mus musculus with 4 samples.

Results

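The S100 genes encode small calcium-binding proteins. Rows of 10 of them (S100a1, S100a4, S100a6, S100a8, S100a9, S100a10, S100a11, S100a13, S100a14 and S100g) were read in all 4 libraries of a table of gene expression in the adult mouse jejunum, out of 22458 gene symbols. The list was chosen from results of the same comparison that is described here, the level in libraries labelled Hnf4a-/-;Cdx2-/- against that in controls. Levels and differences of these 10 genes are therefore a description, and nothing is read from how many of them differed.

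The libraries came from epithelium of the jejunum, released with EDTA, of mice whose background is given as 129xC57/Bl6xSvJ, mixed. The groups were 2 libraries labelled Hnf4a-/-;Cdx2-/- and 2 labelled as Cre- controls, which the labels call biological replicates. All of the mice, controls included, received tamoxifen, which switches on Cre where it is present and so recombines the conditional alleles there. The sources used here do not give the promoter that drives Cre, the exons deleted, the age beyond adult or whether the controls carried the conditional alleles. HNF4A and CDX2 are transcription factors of the intestinal epithelium, and the study asked how they act together in it. The values are FPKM, read numbers scaled to transcript length and library size.

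The RNA of the targeted genes did not match the label in both cases. Hnf4a stood at 31.6 and 48.2 FPKM in the libraries labelled double knockout, against 156 and 202 FPKM in controls, and fell by 2.16 ± 0.27 on the log2 scale (SE, n = 2 each; limma, adjusted p = 0.0147). Cdx2 stood at 160 and 161 FPKM in the libraries labelled double knockout, against 70.9 and 65.2 FPKM in controls, a rise of 1.23 ± 0.15 on the log2 scale (SE, n = 2 each; limma, adjusted p = 0.0150). With either control left out, both calls were lost (adjusted p 0.0624 to 0.0875), as was that of Cdx2 with double knockout replicate 2 left out (0.0602). With the deleted exons not given, RNA from the rest of a gene checks nothing, and the groups are named by their labels throughout. Epithelial markers had the highest sum among the lists of cell type markers used here, in every library. The keratin Krt8 led them at 3075 and 3496 FPKM in libraries labelled double knockout and 1998 and 2815 FPKM in controls. The summed epithelial list came to 12020 and 11080 FPKM in libraries labelled double knockout, against 8236 and 9619 FPKM in controls. Of its 9 genes, all tested, Krt19 rose while Epcam and Vil1 fell (limma, adjusted p = 0.0150, 0.0300 and 0.0411). Over all genes tested, 3.77% were called higher and 5.80% lower. With a library left out, log2 fold changes were 1.67 to 1.92 for Krt19, -1.28 to -1.10 for Epcam and -1.04 to -0.962 for Vil1. Krt19 kept its call only with double knockout replicate 1 left out, and the other 2 lost theirs whichever library was left out. Without the filter on low values none of the 3 was called (0.0563, 0.0737 and 0.0858). In bulk epithelium, fewer cells of a type and less RNA per cell cannot be told apart.

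S100 proteins carry a pair of EF-hands, helix-loop-helix folds that hold calcium, and most work as dimers that open on binding calcium and dock onto a partner. Some act inside the cell on annexins and the cytoskeleton, and some are released and signal through receptors such as RAGE and TLR4. S100g, also called calbindin-D9k, is the member best known in the small intestine, where it carries calcium across the absorptive cell and is induced by vitamin D. In the rat, a CDX2 site in a distal regulatory region of that gene has been described as needed for its intestinal expression.

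Promoter windows of RefSeq (build GRCm38.p6, 250 bases before to 50 after the annotated start) matched 8 of the 10 genes, all but S100a10 and S100a14. The windows of 3 genes are shown because they are the abundant genes whose levels lay furthest above those of the controls among the 8, S100g on the minus strand at chrX:162964550-162964849, S100a6 on the plus strand at chr3:90612644-90612943 and S100a11 on the plus strand at chr3:93520246-93520545. Each is written 5′ to 3′ in the direction of the gene, and capitals mark a match to one of the motifs searched.
S100g: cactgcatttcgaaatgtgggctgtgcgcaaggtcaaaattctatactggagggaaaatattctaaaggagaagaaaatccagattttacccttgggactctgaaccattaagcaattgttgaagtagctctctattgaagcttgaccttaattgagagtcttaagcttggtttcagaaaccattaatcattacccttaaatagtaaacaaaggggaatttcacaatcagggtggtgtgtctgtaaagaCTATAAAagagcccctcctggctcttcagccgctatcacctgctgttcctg
S100a6: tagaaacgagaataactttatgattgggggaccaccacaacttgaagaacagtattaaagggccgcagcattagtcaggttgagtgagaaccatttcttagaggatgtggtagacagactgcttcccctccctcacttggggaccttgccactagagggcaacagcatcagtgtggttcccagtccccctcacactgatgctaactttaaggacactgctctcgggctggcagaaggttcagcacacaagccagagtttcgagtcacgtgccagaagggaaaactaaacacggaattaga
S100a11: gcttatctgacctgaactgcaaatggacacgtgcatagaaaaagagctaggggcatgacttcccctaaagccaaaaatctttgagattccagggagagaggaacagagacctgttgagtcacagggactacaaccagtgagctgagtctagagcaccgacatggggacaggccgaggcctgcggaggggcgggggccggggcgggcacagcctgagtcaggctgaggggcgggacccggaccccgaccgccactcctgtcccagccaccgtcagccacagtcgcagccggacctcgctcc
The motifs were TTTATNG for CDX factors, CAAAGTCCA for HNF4 factors and TATAAA for the TATA box, each on both strands. The capitals of S100g read CTATAAA at bases 250 to 256 of the window. They hold TATAAA and, on the other strand, the CDX motif, so both matches share the same letters. S100a9 had the same match at the same bases, S100a8 had it at bases 220 to 226, and S100a4 held TATAAA alone at bases 220 to 225. S100a1, S100a6, S100a11 and S100a13 held none of the 3 motifs, and no window held the HNF4 motif. Among all 32851 RefSeq promoter windows, 10.9% held the CDX motif, 0.475% the HNF4 motif and 13.6% TATAAA. A match describes the letters only, and the S100g region described in the rat lies outside such a window.

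S100 RNA was abundant and came mostly from 5 genes. Together the 10 genes summed to 3819 and 3686 FPKM in libraries labelled double knockout, against 1378 and 2354 FPKM in controls. That was 0.554% and 0.573% of all FPKM in libraries labelled double knockout, against 0.213% and 0.353% in controls. S100a10 alone made 28.1% and 33.2% of the sum in libraries labelled double knockout, against 64.9% and 51.9% in controls. The lower share of S100a10 went with similar S100a10 levels and higher levels of S100a6, S100a11 and S100g.

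**Figure D1:**
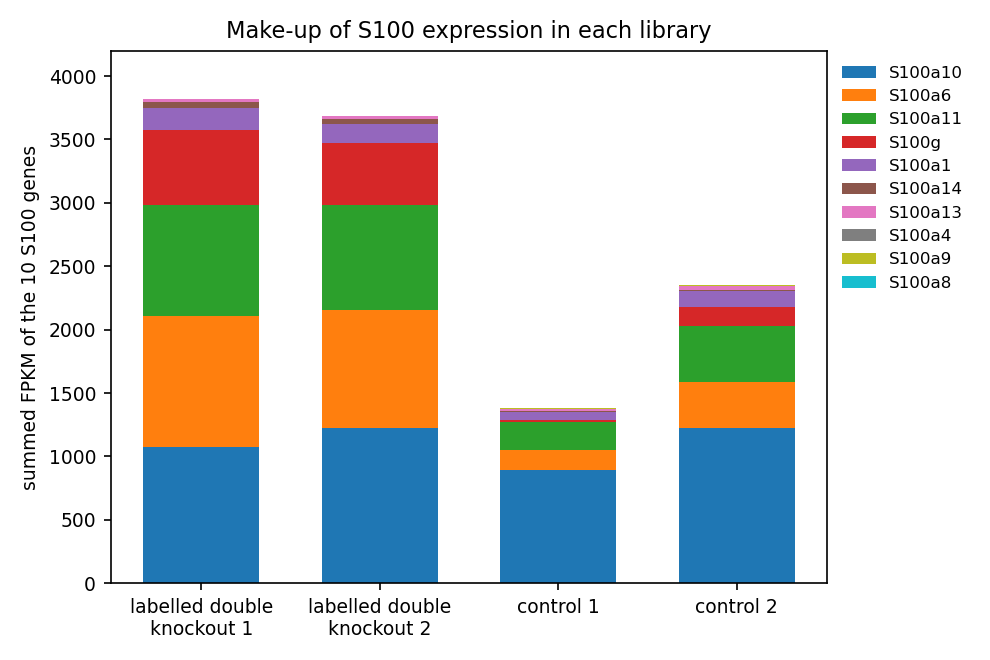
Bars stack the FPKM of the 10 S100 genes in each library, the labelled double knockouts at the left and the controls at the right. The totals were 3819 and 3686 FPKM in libraries labelled double knockout against 1378 and 2354 FPKM in controls, while the S100a10 segment stayed of like height.

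In libraries labelled double knockout the order of the levels, per transcript length, was S100a10, S100a6, S100a11, S100g, S100a1, S100a14 and S100a13, with no overlap between neighbours. S100a4, S100a9 and S100a8 followed below 1 FPKM there. In controls S100a10 was also first, without overlap with any other gene. S100a11 and S100a6, next in that order, overlapped in controls, as did S100a1 and S100g, and S100g and S100a13. S100a14 followed in controls, and S100a9, S100a4 and S100a8 lay lowest and overlapped.

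**Figure D2:**
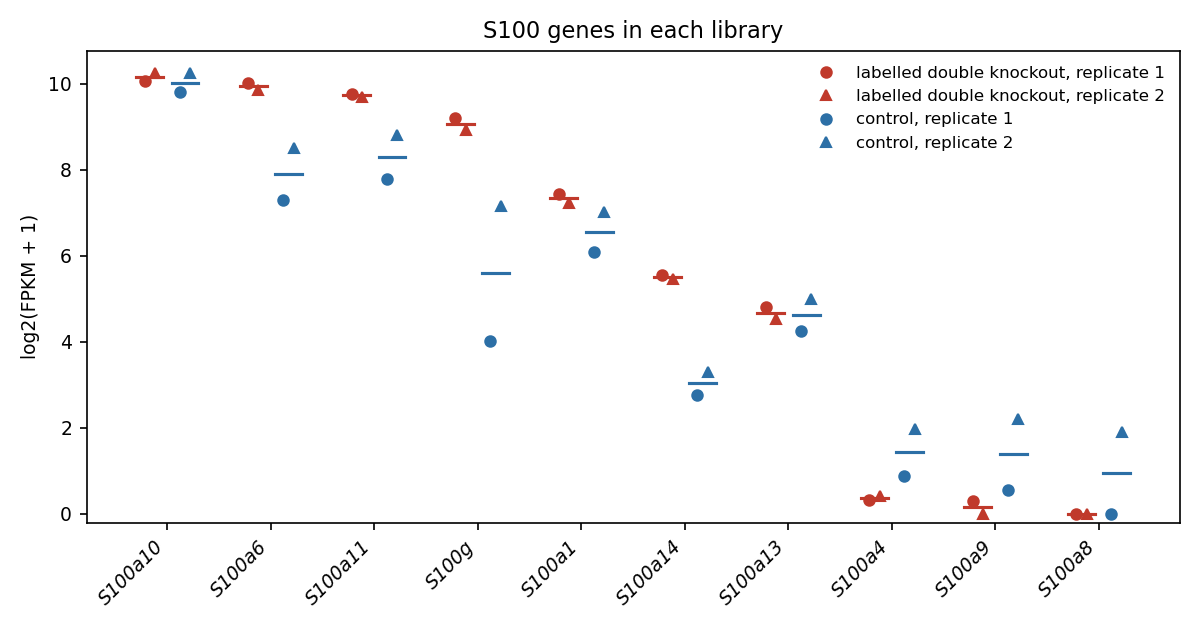
Each point is the level of an S100 gene in 1 library as log2(FPKM + 1), with genes from left to right by mean level, red for the labelled double knockout and blue for the control, and a line at the group mean (n = 2 each). The red pairs of S100a6, S100a11, S100g, S100a1 and S100a14 lie above both blue points, S100a10 and S100a13 overlap, and the blue points of most genes lie wide apart.

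The calcium carrier S100g (chromosome X, 159399924 to 159402531, mm9) had the highest log2 fold change of the list with all 4 libraries. It stood at 591 and 487 FPKM in libraries labelled double knockout, against 15.3 and 143 FPKM in controls. Both labelled double knockouts exceeded both controls, but the controls differed 9.34-fold between themselves. The group means were 539 ± 73.3 FPKM in libraries labelled double knockout and 79.2 ± 90.4 FPKM in controls (SD, n = 2 each). The log2 fold change of FPKM + 1 was 3.47 ± 1.01 (SE); it was 1.90 without control replicate 1 and 5.04 without control replicate 2. The control library used thus set how far the gene stood apart, and without control replicate 1 its log2 fold change lay below the 2.21 of S100a14, while the direction held in both cases.

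Among the annexin-binding members, S100a6 (calcyclin; chromosome 3, 90416816 to 90418336, mm9) stood at 1037 and 932 FPKM in libraries labelled double knockout, against 157 and 364 FPKM in controls. Its log2 fold change was 2.04 ± 0.42 (SE), with 1.43 without control replicate 1 and 2.64 without control replicate 2. The groups lay apart by more than the controls differed. S100a11 (chromosome 3, 93324418 to 93330210, mm9), a partner of annexin A1, stood at 873.5 and 828 FPKM in libraries labelled double knockout, against 219 and 447 FPKM in controls. Its log2 fold change was 1.44 ± 0.37 (SE), with 0.93 without control replicate 1 and 1.95 without control replicate 2. RefSeq lists a pseudogene, S100a11-ps, on chromosome 12, and how reads shared with it were counted is not given, so the S100a11 level is uncertain.

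S100a10 (p11; chromosome 3, 93359039 to 93368567, mm9), which binds annexin A2 and has lost the ability to hold calcium, stood at 1072 and 1223 FPKM in libraries labelled double knockout, against 895 and 1222 FPKM in controls. The groups overlapped, and the log2 fold change was 0.13 ± 0.25 (SE). Its sign turned, to -0.093, without control replicate 1. S100a10 and S100a11 lie 28.8 kb apart in mm9, and whether their log2 fold changes of 0.13 and 1.44 differ from each other was not tested.

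S100a14 (chromosome 3, 90330771 to 90332757, mm9), a member found mainly in epithelia, stood at 45.7 and 42.9 FPKM in libraries labelled double knockout, against 5.84 and 8.795 FPKM in controls. Its labelled double knockouts lay close together and its controls differed 1.51-fold, with means of 44.3 ± 2.03 FPKM in libraries labelled double knockout and 7.32 ± 2.09 FPKM in controls (SD, n = 2 each). The log2 fold change was 2.47 ± 0.22 (SE), and it lay between 2.21 and 2.73 whichever library was left out. S100a14 had the smallest SE of the 9 members fitted.

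S100a1 and S100a13 start head to head on chromosome 3. S100a1, known in muscle as a regulator of calcium release channels, stood at 173 and 149 FPKM in libraries labelled double knockout, against 66.7 and 129 FPKM in controls. The groups did not overlap, though the lower labelled double knockout and the higher control lay close, and the log2 fold change was 0.78 ± 0.34 (SE). It was 0.31 without control replicate 1 and 1.26 without control replicate 2. S100a13, which takes part in the release of the growth factor FGF1, stood at 27.15 and 22.3 FPKM in libraries labelled double knockout, against 18.0 and 31.0 FPKM in controls. These groups overlapped, with a log2 fold change of 0.055 ± 0.29 (SE), and its sign turned, to -0.32, without control replicate 1.

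The members known from leukocytes and connective tissue were all low. S100a8 and S100a9 form calprotectin, the calcium- and zinc-binding complex of neutrophils, and S100a4 (metastasin) is known from fibroblasts and immune cells. S100a8 was listed at 0 in both libraries labelled double knockout, and at 0 and 2.72 FPKM in controls. S100a9 stood at 0.240 and 0 FPKM in libraries labelled double knockout, against 0.470 and 3.62 FPKM in controls. S100a4 stood at 0.259 and 0.338 FPKM in libraries labelled double knockout, against 0.8425 and 2.95 FPKM in controls. S100a9 and S100a4 were lower in both labelled double knockouts than in both controls, and all 3 genes were highest in control replicate 2. The log2 fold changes were -1.23 ± 0.57 for S100a9 and -1.06 ± 0.41 for S100a4 (SE); without control replicate 2 they were -0.40 and -0.51. S100a8 had a mean of 0.681 FPKM, under the minimum of 1 FPKM for the fit, and was not tested. S100a4 and S100a9 reached that minimum, with means of 1.10 and 1.08 FPKM, only through the controls.

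Markers of other cell types are given beside these 3 genes, none of which was called. Over all genes tested, 3.77% were called higher and 5.80% lower. The 14 neutrophil markers in the table summed to 2.81 and 2.91 FPKM in libraries labelled double knockout, against 3.28 and 5.22 FPKM in controls, with Elane, Mpo, Prtn3, Camp and Ngp listed at 0 in all 4 libraries. Only Itgam of these markers passed the minimum level, and it fell by 1.10 ± 0.21 on the log2 scale (SE; limma, adjusted p = 0.0410), a call lost whichever library was left out (adjusted p 0.0893 to 0.1499). The 12 macrophage and monocyte markers summed to 17.1 and 17.2 FPKM in libraries labelled double knockout, against 15.7 and 46.7 FPKM in controls. Lyz2, a lysozyme gene, made up much of the last value: it stood at 1.86 and 2.66 FPKM in libraries labelled double knockout, against 8.60 and 34.8 FPKM in controls. In contrast Mrc1 and Cd14 rose, to 2.65 and 9.18 FPKM on average in libraries labelled double knockout, against 0.181 and 3.81 FPKM in controls (limma, adjusted p = 0.0175 and 0.0455). Mrc1 and Cd14 were the 2 called of the 4 tested on this list. Mrc1 passed the minimum level only through the libraries labelled double knockout. Mrc1 lost its call with either control left out (0.0754 and 0.0707), and Cd14 with any library left out (0.0972 to 0.164). Cd14 also lost it at a pseudocount of 5 (0.05005), without the filter on low values (0.0953) and after quantile normalization (0.0538). Itgam lost its call without the filter (0.0515) and with FPKM estimated for each library alone (0.0599). Itgam had passed the minimum only through the controls, with a mean of 0.628 FPKM in libraries labelled double knockout. Fibroblast and muscle markers summed to 6.49 and 11.5 FPKM in libraries labelled double knockout, against 9.24 and 10.4 FPKM in controls, with none of 3 tested called, and Vim led them. Lymphocyte markers summed to 60.6 and 176 FPKM in libraries labelled double knockout, against 74.2 and 91.4 FPKM in controls, with none of 7 tested called. The part of these cells in the S100a8, S100a9 and S100a4 values was not tested.

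The fit across the table covered 9 of the 10 S100 genes. At an adjusted p under 0.05 (limma on log2(FPKM + 1)), 1 of the 9, S100a14, was called higher, and 3.77% of the 10883 genes tested were called higher. None of the 9 was called lower, and 5.80% of all genes tested were called lower. Both labelled double knockouts lay above both controls for 5 of the 9, against 31.2% of all genes tested. Both lay below both controls for 2 of the 9, against 29.5% of all genes tested. The median log2 fold change of the 9 was 0.78, and that of all genes tested was 0.025. In the authors' deposited table, 4 of the 10 genes (S100a6, S100a11, S100a14 and S100g) were called higher and none lower, and 5.90% of the genes tested there were called higher. The S100g locus in the authors' deposited table, 159339492 to 159472473, is wider than in the files of single libraries. Since the list was chosen from this comparison, none of these shares is a result about the family.

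**Figure D3:**
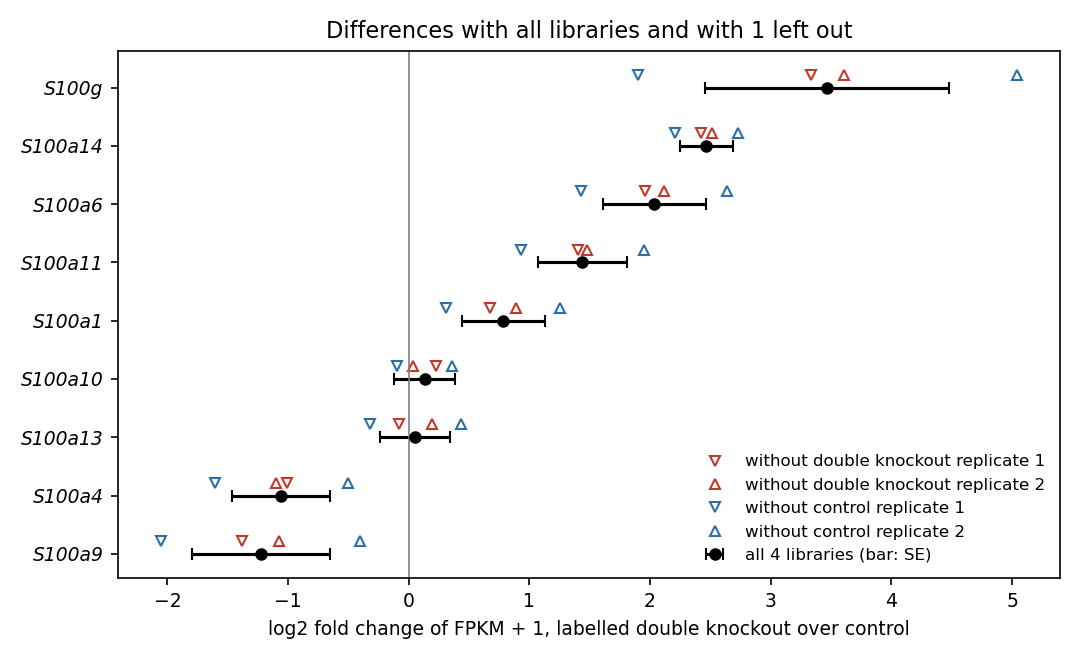
Black points give the log2 fold change of FPKM + 1 of the 9 fitted S100 genes, labelled double knockout over control, with SE bars, and open triangles give it with 1 library left out. S100a14 moved least among the 4 genes with the highest values, S100g lay at 1.90 or 5.04 depending on the control left out, and S100a10 and S100a13 lay on both sides of 0.

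The control replicates themselves differed across the list. All 10 genes were higher in control replicate 2 than in control replicate 1, whereas 49.2% of the genes tested were. On the scale of FPKM + 1, 7 of the 9 fitted genes were over 1.5-fold higher in control replicate 2, against 6.78% of the genes tested. Some other lists leaned the same way. Higher in control replicate 2 were 29 of 36 on the EF-hand list, 10 of 13 annexin and cytoskeletal partners and 8 of 10 on the receptor list. So were 11 of 12 macrophage and monocyte markers and 7 of 9 epithelial markers. Among calcium uptake genes 7 of 17 were, and among further family names 4 of 8. These counts include untested genes. Of the 8 names, S100a2, S100a3 and S100a7a were at 0 in both controls, and only S100z was lower in control replicate 2. Genes at 0 throughout were 4 of the 17, 2 of the 8 further names and 1 of the 36 on the EF-hand list. The ratio of plain FPKM was 9.34 for S100g, 7.71 for S100a9, 3.50 for S100a4, 2.32 for S100a6, 2.04 for S100a11, 1.94 for S100a1, 1.73 for S100a13, 1.51 for S100a14 and 1.37 for S100a10. In libraries labelled double knockout only S100a4 and S100a10 were higher in replicate 2. The median difference between replicates, 2 minus 1, was -0.15 on the log2 scale in libraries labelled double knockout and 1.02 in controls for the 9 genes, against -0.022 and -0.0051 for all genes tested. The labels give no litter, batch or day that tells the controls apart.

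**Figure D4:**
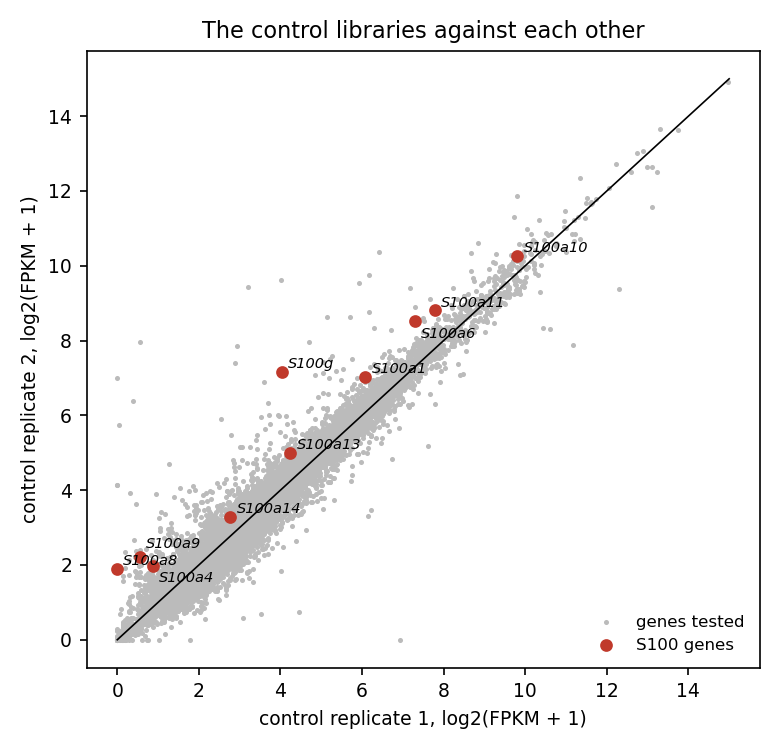
The level of each gene tested (grey) and of the 10 S100 genes (red) in control replicate 2 is plotted against control replicate 1, both as log2(FPKM + 1), with a line of equal levels. All 10 red points lie above the line, S100g the furthest, while 49.2% of the genes tested do.

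Further S100 genes also differed. Of 8 further family names found in the table, 4 passed the minimum level, and 2 of these rose, with none called lower (3.77% and 5.80% of all genes tested). S100a5, known from olfactory neurons, stood at 4.71 and 4.83 FPKM in libraries labelled double knockout, against 0.657 and 0.959 FPKM in controls. It rose by 1.68 ± 0.19 on the log2 scale (SE; limma, adjusted p = 0.0126). With a control mean of 0.808 FPKM, S100a5 reached the minimum level only through the libraries labelled double knockout. S100a16, a widely expressed member, stood at 60.8 and 61.2 FPKM in libraries labelled double knockout, against 22.6 and 27.3 FPKM in controls. It rose by 1.27 ± 0.16 (SE; limma, adjusted p = 0.0163). Replicates lay close in the libraries labelled double knockout, while the controls differed 1.46-fold for S100a5 and 1.21-fold for S100a16. Neither gene overlapped between groups. The call of S100a5 held with double knockout replicate 1 left out (limma, adjusted p = 0.0424) and was lost with the other double knockout (0.0537), control replicate 1 (0.0575) or control replicate 2 (0.0570) left out. S100a16 lost its call in all 4 such fits, while its log2 fold change stayed between 1.135 and 1.396. S100a16 was called in the authors' deposited table (q = 0.00159), and S100a5 was not (q = 0.208).

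S100z stood at 1.57 and 3.08 FPKM in libraries labelled double knockout, against 1.02 and 0 FPKM in controls, and did not pass the test (limma, adjusted p = 0.156). S100pbp, whose product binds a family member and is not itself an S100 protein, stood at 1.07 and 1.32 FPKM in libraries labelled double knockout, against 2.05 and 3.046 FPKM in controls (limma, adjusted p = 0.135). S100b, best known from glia, stood at 0.828 and 0.474 FPKM in libraries labelled double knockout, against 0 and 0.0492 FPKM in controls, and was under the minimum. S100a3 was listed at 0 and 0.195 FPKM in libraries labelled double knockout and at 0 in both controls, and S100a2, S100a7a and S100a7l2 (listed as 9130204L05Rik, and not among the 8 names) were at 0 in all libraries. The median log2 fold change of the 4 genes tested was 1.23, against 0.025 over all genes tested. Of these 4, S100a5 and S100z, with control means of 0.808 and 0.512 FPKM, passed the minimum only through the libraries labelled double knockout. The epidermal proteins that carry an S100 domain at their start were mostly listed at 0, with 5 of 6 at 0 throughout and the one tested, Tchh, not called.

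Most chromosomal neighbours were listed at 0. In mm9, 9 of the 10 genes lie on chromosome 3 between 90314956 and 93368567, 7 of them within 184.7 kb from S100a1 to S100a9, followed by 2824.8 kb to S100a11. Between them stand 59 other symbols, the skin-barrier genes of the epidermal differentiation complex among them, and 45 of these were at 0 in all libraries. Of the 6 with enough signal for a test, S100a5 and S100a16 rose and none fell (3.77% and 5.80% of all genes tested). S100a5 had enough signal only through the libraries labelled double knockout. The other 4 were Tchh and the cornified-envelope genes Sprr2a1, Sprr2b and Sprr1a, named after their values were seen, and none was called (limma, adjusted p 0.111 to 0.996). Sprr2a1 stood at 18.9 and 15.9 FPKM in libraries labelled double knockout, against 1.99 and 12.3 FPKM in controls, and was, like the S100 genes, higher in control replicate 2. The median log2 fold change of the 6 was 1.40, against 0.025 over all genes tested.

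Genes that work with S100g in calcium uptake did not share its direction as a group. Calcium enters the absorptive cell through TRPV channels, is carried by S100g and leaves through the pump ATP2B1, while claudins let calcium pass between cells and the vitamin D receptor controls much of this set. Of 17 listed genes found, 7 were tested, of which 1 rose and 2 fell (3.77% and 5.80% of all genes tested), with a median log2 fold change of -0.77 against 0.025 over all genes tested. Trpv5, Trpv6, Cyp24a1 and Calb2 were listed at 0 in all libraries. Pdia3, a membrane-associated vitamin D binding protein and a folding enzyme, was the most abundant, at 313 and 288 FPKM in libraries labelled double knockout and 286 and 264 FPKM in controls, and was not called (limma, adjusted p = 0.675).

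Vdr, the vitamin D receptor, stood at 16.1 and 20.4 FPKM in libraries labelled double knockout, against 100 and 80.3 FPKM in controls. It fell by 2.25 ± 0.20 on the log2 scale (SE; limma, adjusted p = 0.00806), so S100g and the receptor known to induce it lay in opposite directions. Cldn15, a claudin that forms cation pores in the small intestine, stood at 88.2 and 60.1 FPKM in libraries labelled double knockout, against 370 and 378 FPKM in controls. It fell by 2.34 ± 0.23 (SE; limma, adjusted p = 0.00895). Cldn2, another cation-pore claudin, stood at 118 and 79.3 FPKM in libraries labelled double knockout, against 18.4 and 7.23 FPKM in controls, and rose by 2.95 ± 0.45 (SE; limma, adjusted p = 0.0241). The 2 claudins of like function thus moved in opposite directions. Atp2b1 and Rxra, the partner of the receptor, were named after their values were seen and lay lower in both labelled double knockouts than in both controls, but were not called (limma, adjusted p = 0.153 and 0.0698). Leaving out a library lost the call of Vdr without control replicate 1 (adjusted p = 0.0543) and that of Cldn15 without control replicate 1 or 2 (0.0603 and 0.0656). Cldn2 kept its call with control replicate 1 left out (0.0415) and lost it with any other library left out (0.0640 to 0.0817) or without the filter on low values (0.0560).

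**Figure D5:**
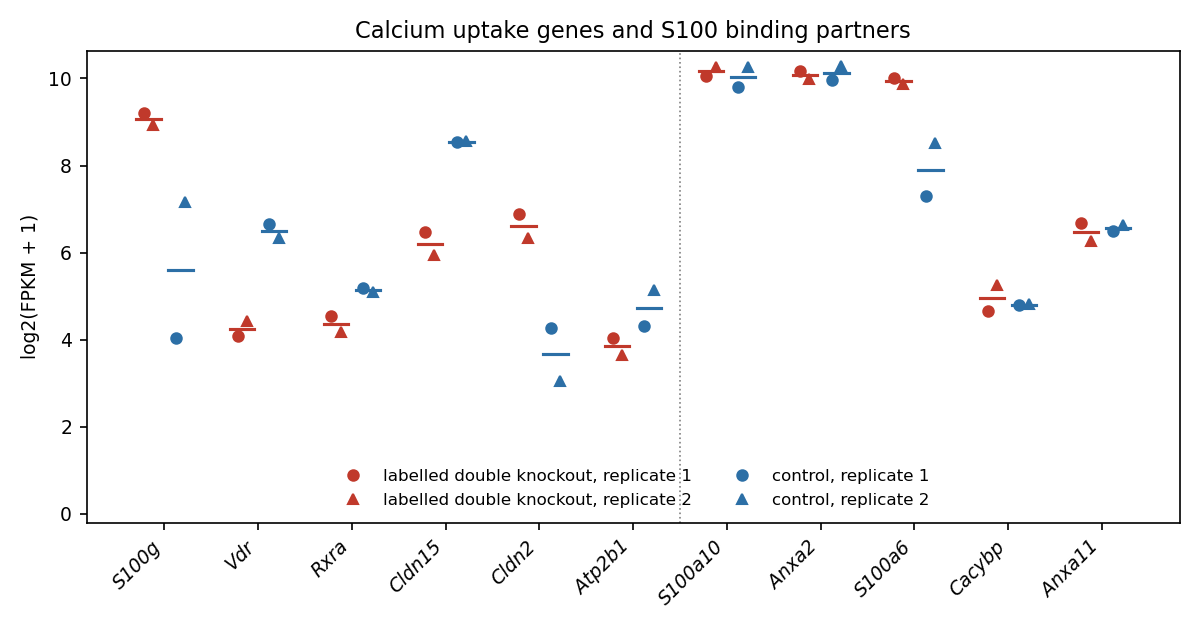
Each point is the level in 1 library as log2(FPKM + 1), red for the labelled double knockout and blue for the control, with a line at the group mean (n = 2 each); calcium uptake genes stand left of the dotted line and S100a10 and S100a6 with annexin and calcyclin-binding partners right of it. S100g and Cldn2 are higher and Vdr and Cldn15 lower in red, Anxa2 lies level with S100a10, and the red points of S100a6 stand apart from blue while those of Cacybp and Anxa11 do not.

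Most annexin, cytoskeletal and cell-surface partners of S100 proteins were not called. Of 13 listed, all tested, 1 rose and none fell (3.77% and 5.80% of all genes tested), and the median log2 fold change was 0.11 against 0.025 over all genes tested. Anxa2, which joins S100a10 in a membrane-binding complex, was the most abundant at 1157 and 1020 FPKM in libraries labelled double knockout, against 995 and 1238 FPKM in controls. It overlapped between groups, at levels close to those of S100a10. Anxa11 and Cacybp, partners of S100a6 named after their values were seen, also overlapped between groups. Anxa1, the partner of S100a11, also named after its values were seen, stood at 4.56 and 4.39 FPKM in libraries labelled double knockout, against 0.454 and 1.81 FPKM in controls, and did not pass the test (limma, adjusted p = 0.0697). Plat, the tissue plasminogen activator that S100a10 binds at cell surfaces, stood at 4.50 and 4.23 FPKM in libraries labelled double knockout, against 0.127 and 0.277 FPKM in controls. With these controls, Plat reached the minimum of 1 FPKM for the test only through the libraries labelled double knockout. It rose by 2.16 ± 0.20 on the log2 scale (SE; limma, adjusted p = 0.00809), and missed the threshold without control replicate 1 (0.0503).

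Receptors known for released S100 proteins differed widely in level. Their list also held Ly96 and Myd88, which work with TLR4 and are not themselves S100 receptors. Of 10 listed genes, 6 were tested, of which 2 rose and none fell (3.77% and 5.80% of all genes tested). The median log2 fold change was 0.66 against 0.025 over all genes tested, and Ly96 and Myd88 lay at 0.64 and 0.67. Ager, which encodes RAGE, and Tlr4 were at or below 1.05 FPKM in all libraries and were not tested. Sdc1, a heparan sulfate proteoglycan, stood at 77.2 and 68.1 FPKM in libraries labelled double knockout, against 30.6 and 32.4 FPKM in controls, and rose by 1.18 ± 0.16 (SE; limma, adjusted p = 0.0169). Alcam, a cell adhesion molecule described as a receptor of S100b, stood at 13.1 and 12.9 FPKM in libraries labelled double knockout, against 6.32 and 6.86 FPKM in controls, and rose by 0.88 ± 0.15 (SE; limma, adjusted p = 0.0309). Both calls were lost whichever library was left out, at log2 fold changes of 1.09 to 1.27 for Sdc1 and 0.83 to 0.94 for Alcam. That of Alcam was also lost without the filter on low values (limma, adjusted p = 0.0639). Bsg, a glycoprotein described in humans as a receptor of S100A9, was the most abundant at 387 and 386 FPKM in libraries labelled double knockout, against 556 and 599 FPKM in controls, and was not called (limma, adjusted p = 0.115). Cd36, a fatty acid transporter and scavenger receptor named after its values were seen, stood at 15.7 and 2.87 FPKM in libraries labelled double knockout, against 59.0 and 75.7 FPKM in controls, and did not pass the test (log2 fold change -3.08 ± 0.69, SE; limma, adjusted p = 0.0595).

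Calcium-binding proteins with EF-hands outside the family showed no common direction. Their list also held Mcu, Ppp3ca and Ppp3cb, whose products carry no EF-hands themselves. Of 36 listed, 34 were tested, of which Actn1 rose and Pdcd6 fell (3.77% and 5.80% of all genes tested), and the median log2 fold change was -0.051 against 0.025 over all genes tested. Actn1, an actin cross-linker, stood at 43.6 and 31.5 FPKM in libraries labelled double knockout, against 13.6 and 14.1 FPKM in controls (limma, adjusted p = 0.0226). Pdcd6, a penta-EF-hand protein of vesicle transport, stood at 102 and 97.3 FPKM in libraries labelled double knockout, against 170 and 212 FPKM in controls (limma, adjusted p = 0.0464). Left out in turn, every library but double knockout replicate 2 cost Actn1 its call (adjusted p 0.0634 to 0.110), and every library cost Pdcd6 its call (0.0860 to 0.158), as did no filter on low values (0.0666) and FPKM estimated for each library alone (0.0624). Calml4, a calmodulin-like protein of the brush border, was the most abundant at 818 and 403 FPKM in libraries labelled double knockout, against 711.5 and 828 FPKM in controls, and overlapped between groups.

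The genes nearest in pattern were sought for the 2 ends of the list, S100g and S100a9, by Euclidean distance of log2(FPKM + 1) centred on the mean of the 4 libraries. Nearest to S100g were Cbr3 (a carbonyl reductase; distance 1.02), Psca (a cell surface antigen; 1.22) and Fut2 (a fucosyltransferase; 1.25). Cbr3 stood at 53.2 and 57.9 FPKM in libraries labelled double knockout, against 1.07 and 6.49 FPKM in controls, and like S100g was higher in control replicate 2. Nearest to S100a9 were 9030619P08Rik (0.230), Ccdc42 (0.237) and Cpa3 (a mast cell protease; 0.319). Cpa3 stood at 0.423 and 0.237 FPKM in libraries labelled double knockout, against 1.22 and 5.63 FPKM in controls, so control replicate 2 was again the highest. These distances rest on 4 libraries and on the same values as the differences above.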

How the data were processed

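RNA of jejunal epithelium was sequenced in 4 libraries, grouped by their titles. The submitters' processing notes name TopHat2 (version 2.0.9), Cufflinks (version 2.1.1), Cuffnorm and Cuffdiff, and mm9 as the build, and give no roles. The authors deposited FPKM for each library alone, per the file headers, and a joint table of 23735 rows. The unit of that table is not named; its values were read as FPKM normalized between libraries by the authors, since Cuffnorm is named and the levels are of the order of those in the single files, where most S100 values are lower. The deposited comparison holds group FPKM, p-values, q-values and a test statistic score by the authors, per the file headers; the score was not used. Rows sharing a symbol were summed (160 symbols), and 1034 short RNA symbols were left out. A 0 may not mean absent RNA. Hmgcs1, used by most cells, is at 0 throughout, but its listed locus is on chromosome 13_random. Whether that placement gave the 0, and whether it bears on other genes at 0, was not tested.

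Where the mean reached 1 FPKM, genes were tested with limma version 3.58.1 (R version 4.3.3) on log2(FPKM + 1), with an intensity trend, two-sided, and Benjamini-Hochberg adjustment over all 10883 genes tested. Differences on this scale are understated for low genes. With 2 libraries a group, the smallest p of an exact permutation test is 0.333. No counts were used, so depth is unknown; ratios between libraries of values under 0.15 FPKM in 401 genes had more than 1 peak of like size and did not settle the relative depth. Library sums were 643708 to 689276 FPKM. Pearson's r across genes was 0.961 for the pair labelled double knockout and 0.971 for the controls, against 0.884 to 0.904 between groups. The fit was tested on simulated data.

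The 10 genes and the other lists were chosen with earlier results of these data known. Named genes were all S100 family genes in the table, the called genes of each other list (at most 4 per direction) and its most abundant gene, plus those marked as named after their values were seen. Alternatives changed the pseudocount, the filter, the scaling, the source of the FPKM, the variance trend and a replicate block, and left out each library in turn. Promoter windows came from RefSeq, and no sequence was read by coordinates.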

Additional observations from a re-analysis of the deposited data

How the results depend on the processing

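Over all genes tested 1041 were called, and 786 with a replicate block. Leaving out a library gave 171 to 693: 171 and 176 with control replicate 1 or 2 left out, 693 and 506 with double knockout replicate 1 or 2 left out. Of the S100 genes 1 was called, 2 after quantile normalization (S100a6 and S100a14), 3 with the FPKM estimated for each library alone (S100a6, S100a11 and S100a14), and 1 to 3 with a library left out, 3 without control replicate 2 (S100a6, S100a14 and S100g). S100a14 was called in all 14 settings, with adjusted p 0.00299 to 0.0373 (limma). With the replicate block 1 S100 gene was called, as before, and of the other named genes Alcam, Pdcd6, Cd14, Itgam, Epcam and Vil1 lost their calls (adjusted p 0.0653 to 0.101). The replicate numbers did not pair the libraries: the differences between replicates correlated across genes at r = -0.00481 between the groups.

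Over the 9 fitted S100 genes and the alternatives, 105 values kept direction and side of the threshold, 5 newly passed it and 3 changed sign. The sign changes were S100a10 without control replicate 1 (-0.093) and S100a13 without control replicate 1 (-0.32) or double knockout replicate 1 (-0.081). With a library left out S100a10 ranged over -0.093 to 0.36 and S100a13 over -0.32 to 0.43; neither gene was called, and the cause was not tested. FPKM estimated for each library alone shifted the median of all genes tested to 0.17, against 0.025, and the calls to 515 higher and 478 lower, against 410 and 631. S100a8 was fitted only without the filter and not called there.

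Of the 65 tested genes of the other lists, cell type markers aside, 10 were called. These were 7 higher and 3 lower (3.77% and 5.80% of all genes tested). Fewer were called with any library left out, as over all genes tested. Between the S100 genes of chromosome 3, 2 were called, 1 with the filter at a mean of 5 FPKM, where S100a5 was not tested, and 0 to 2 with a library left out. Where a fit leaves 1 library in a group, that library is assumed to vary like the others. With 2 libraries per group and no counts, differences in the low genes S100a4, S100a8 and S100a9 did not pass the test or were not tested.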
